A study of Mus musculus with 7 samples.

Results

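The genes of cholesterol and fatty acid synthesis were followed in mouse CD8+ T cells exposed to small extracellular vesicles (sEV) of a leukemic or a healthy spleen. The set holds 38 of the 55367 genes in the deposited count table and was picked by gene symbol: 5 regulators, 18 sterol enzymes, 4 genes of sterol transport, and 11 fatty acid enzymes. LME-sEVs came from the leukemic microenvironment, the spleens of Eμ-*TCL1* mice, in which a *TCL1* transgene active in B cells gives rise to leukemia. HCME-sEVs came from healthy spleens. All 7 cultures held CD8+ T cells from spleens of the Foxp3 YFP/cre strain, in which the *Foxp3* locus also drives YFP and Cre, and all were kept with vesicles for 48 hours; 4 received HCME-sEVs and 3 received LME-sEVs according to the labels, which set the groups here, whereas a legend of the study swaps these sizes. The vesicle dose is 100 μg/mL in the labels; the methods instead set it by what a spleen of each kind contains. The labels describe FACS-sorted cells, whereas the methods describe CD8+ T cells taken by negative selection and grown with anti-CD3, anti-CD28, and IL2; which isolation and stimulation these cultures had is not settled by these sources. The methods give a general age of young adult mice, and no label gives an age or says which libraries share an animal or a vesicle preparation, so p-values here measure the spread between these libraries, which may be partly technical. There was no culture without vesicles, and a difference has no direction relative to untreated cells.

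Cells make cholesterol from acetyl-CoA through the mevalonate pathway, and make fatty acids from the same acetyl-CoA through malonyl-CoA. The transcription factors SREBP1 and SREBP2 switch on both branches: when membranes are poor in sterol, the escort protein SCAP carries them to the Golgi for cleavage, and the INSIG proteins hold SCAP back when sterol is plentiful. Oxidized sterols act on LXR, which raises genes of sterol export. CD8+ T cells build up this program when they are activated, because dividing cells need new membrane.

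Reads came from the 3′ ends of polyadenylated transcripts, and copies of the same molecule had been merged by a molecular identifier, so gene length does not enter a level. Levels are CPM, counts scaled to a common library size, after TMM normalization. Libraries held between 3689831 and 5030522 counts, and the detection floor of 3 counts equals 0.582 to 0.807 CPM. The 12623 genes that averaged 5 or more counts entered the quasi-likelihood test of edgeR, with p-values adjusted by Benjamini and Hochberg across them (FDR), and a gene was called at an FDR under 0.05. CD8+ T-cell markers were high in every library, with summed levels of *Cd3d*, *Cd3e*, *Cd3g*, *Cd2*, *Cd8a*, and *Cd8b1* of 1494 to 1600 CPM with HCME-sEVs and 1720 to 1957 CPM with LME-sEVs. *Cd4* and *Foxp3* together stayed at or below 0.582 CPM.

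In this comparison 2 of the 37 tested genes were called: *Fasn*, the enzyme that assembles palmitate, fell with LME-sEVs, and *Dhcr7*, which carries out the closing reduction to cholesterol, rose. This is 5.41% of the tested members, against 8.96% of all tested genes. In the upward direction 1 of the 37 was called, against 3.75% of all tested genes. In the downward direction it was also 1 of the 37, against 5.21%. No member passed the study's cutoff for a differentially expressed gene, an FDR under 0.05 with a log2 fold change beyond 1, which 1.28% of all tested genes passed. The tested members lay between -0.52 and 0.55 in log2 fold change (LME-sEVs over HCME-sEVs) with a median of 0.09, and 21 of them were above 0 and 16 below. All tested genes had a median of 0.01 and quartiles of -0.16 and 0.20. The 2 groups of libraries did not overlap for 4 members (10.8%), *Fasn*, *Dhcr7*, *Hmgcs1*, and *Pmvk*, against 20.3% of all tested genes. An unadjusted p under 0.05 was reached by 8 of the 37 tested members and by 2864 of the 12623 tested genes, which are similar shares. The 8 were the 4 just named with *Tm7sf2*, *Abcg1*, *Scd1*, and *Acss2*.

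**Figure D1:**
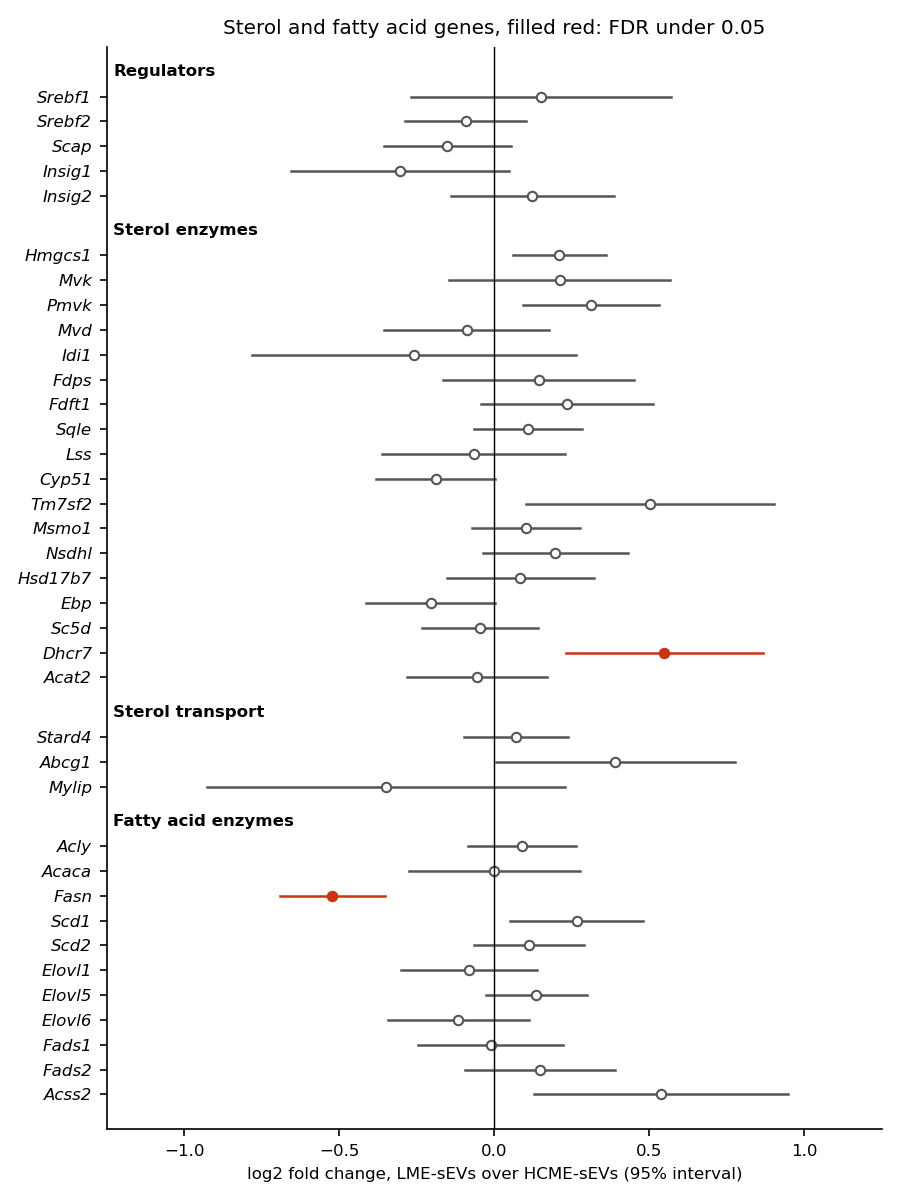
The log2 fold change of each of the 37 tested genes, LME-sEVs over HCME-sEVs, with its 95% interval from the edgeR fit; filled red points have an FDR under 0.05. *Fasn* at -0.52 and *Dhcr7* at 0.55 are the called genes, and most other intervals cover 0.

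The called genes and *Hmgcs1* are shown here with the 250 bases before their RefSeq transcription start (GRCm38.p6), because SREBP acts at such sites together with NF-Y at CCAAT boxes and Sp1 at GC boxes. *Hmgcs1* was added after the match was seen. Of the 30 members with a window used here, it alone held the element TCACNCCAC, and it was not called. Capitals mark matches to TCACNCCAC, CCAAT, or GGGCGG on either strand (reverse complements GTGGNGTGA, ATTGG, and CCGCCC). The *Fasn* window lies at chr11:120824548-120824797 on the minus strand. RefSeq lists 3 starts of *Dhcr7*, and the windows shown are those of the outer starts, chr7:143822917-143823166 and chr7:143829964-143830213 on the plus strand; the window between them, which overlaps the first, holds no match. The *Hmgcs1* window lies at chr13:119690101-119690350 on the plus strand.
Fasn: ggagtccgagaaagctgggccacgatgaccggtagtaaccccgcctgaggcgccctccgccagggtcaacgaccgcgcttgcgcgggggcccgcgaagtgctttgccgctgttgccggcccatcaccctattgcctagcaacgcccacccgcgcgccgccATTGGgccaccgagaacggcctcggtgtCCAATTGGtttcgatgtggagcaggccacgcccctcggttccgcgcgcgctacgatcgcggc
Dhcr7, first start: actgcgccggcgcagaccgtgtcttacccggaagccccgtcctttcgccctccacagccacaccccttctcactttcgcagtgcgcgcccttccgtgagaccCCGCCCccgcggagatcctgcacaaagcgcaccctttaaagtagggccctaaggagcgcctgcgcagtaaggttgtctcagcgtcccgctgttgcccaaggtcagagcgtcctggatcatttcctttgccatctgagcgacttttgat
Dhcr7, last start: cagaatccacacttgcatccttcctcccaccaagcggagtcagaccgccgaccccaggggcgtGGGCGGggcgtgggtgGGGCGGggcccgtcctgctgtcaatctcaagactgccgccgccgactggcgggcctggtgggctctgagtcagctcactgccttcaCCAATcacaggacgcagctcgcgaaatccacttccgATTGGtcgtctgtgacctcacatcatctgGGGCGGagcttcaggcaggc
Hmgcs1: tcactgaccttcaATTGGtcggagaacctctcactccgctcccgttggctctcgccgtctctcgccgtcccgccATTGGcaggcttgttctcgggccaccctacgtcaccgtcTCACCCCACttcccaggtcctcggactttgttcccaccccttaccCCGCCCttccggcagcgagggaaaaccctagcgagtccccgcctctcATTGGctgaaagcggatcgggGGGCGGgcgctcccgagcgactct
The *Fasn* window holds 3 CCAAT matches, of which the 2 nearest to the start overlap, and no GGGCGG. The last *Dhcr7* window holds 2 CCAAT and 3 GGGCGG matches, and the first holds 1 GGGCGG match and no CCAAT. In *Hmgcs1* the 9 bases TCACCCCAC begin 137 bases before the start, among 3 CCAAT and 2 GGGCGG matches.

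Promoter windows matched 30 of the 38 genes, with 39 windows in all. *Fdps*, *Fdft1*, *Sqle*, *Abcg1*, *Scd1*, *Scd2*, and *Fads1* had none. Member windows on chromosome 18, where *Stard4* lies, were left out, so none was read for *Stard4*. The windows of all genes were not restricted in this way. CCAAT was in the windows of 23 genes, or 61.5% of their windows against 33.8% of the 32851 windows of all genes. GGGCGG was in those of 25 genes, 74.4% of their windows against 32.7% of all. TCACNCCAC was in 2.56% of their windows and 1.05% of all. The windows of all genes came from 27025 genes, more than the 12623 tested, and a comparison with tested genes alone was not made. These are matches of letters, not measured binding, and the window ends at the start site.

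Among the fatty acid enzymes, 1 of 11 was called (9.09%, against 8.96% of all tested genes). *Fasn* (GRCm38 chr11:120805846-120824547, minus strand) stood at 172.5, 158.1, 173.4, and 187.2 CPM in HCME-sEV libraries 1 to 4, and at 123.8, 116.2, and 121.2 CPM in LME-sEV libraries 1 to 3. The lowest HCME-sEV library was above the highest LME-sEV library. It averaged 172.8 ± 11.9 CPM with HCME-sEVs (SD, n = 4) and 120.4 ± 3.85 CPM with LME-sEVs (SD, n = 3). On the log2 scale the fold change came to -0.52 (standard error, SE, 0.08, FDR = 0.000624 by the quasi-likelihood test of edgeR, Benjamini-Hochberg adjusted), a difference of -30.4% with a 95% interval from -38.1% to -21.6%. An exact permutation test on the log2 levels, two-sided, gave p = 0.0286, the smallest that 4 against 3 libraries allow. *Fasn* was called in each of the 14 alternative analyses, and with any 1 library left out its log2 fold change lay between -0.56 and -0.48.

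None of the steps around *Fasn* was called. *Acly*, which releases acetyl-CoA from citrate in the cytosol, had 102.1 to 112.5 CPM with HCME-sEVs and 105.2 to 119.0 CPM with LME-sEVs (log2 fold change 0.09). *Acaca*, which makes the malonyl-CoA that *Fasn* uses, averaged 56.1 ± 7.14 CPM with HCME-sEVs (SD, n = 4) and 56.8 ± 14.5 CPM with LME-sEVs (SD, n = 3), and its log2 fold change of -0.0002 had a 95% interval from -0.28 to 0.28. Among the LME-sEV libraries *Acaca* reached 73.5 CPM in library 1 and 47.4 and 49.4 CPM in the others. *Elovl6*, which lengthens the palmitate that *Fasn* makes, had 42.9 to 55.0 CPM with HCME-sEVs and 41.1 to 45.5 CPM with LME-sEVs (-0.12, 95% interval -0.34 to 0.11), and its 3′ end has a near-identical copy. On the log2 scale the level of *Fasn* relative to *Acaca* was between 1.501 and 1.797 with HCME-sEVs and between 0.75 and 1.29 with LME-sEVs. The groups were apart in this ratio, which largely repeats the difference in *Fasn*. Relative to *Elovl6* the level of *Fasn* was between 1.524 and 2.013 against 1.445 and 1.498, where HCME-sEV library 2 came close to the highest LME-sEV library. These ratios reuse the levels of *Fasn*, were chosen after the levels were seen, and carry no test.

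The most abundant fatty acid enzymes were *Scd2* and *Elovl5*. *Scd2*, a desaturase that makes monounsaturated fatty acids, stood at 275.1, 305.6, 331.6, and 303.8 CPM with HCME-sEVs and 294.3, 325.2, and 365.3 CPM with LME-sEVs. The ranges overlapped, and the log2 fold change was 0.11 (SE 0.09, FDR = 0.474 by the quasi-likelihood test of edgeR, Benjamini-Hochberg adjusted). *Elovl5*, which lengthens polyunsaturated fatty acids, stood at 215.1, 215.9, 213.1, and 250 CPM and then at 244.6, 247.7, and 244.5 CPM. HCME-sEV library 4 lay above all LME-sEV libraries, while the other HCME-sEV libraries lay below them, and the fold change of 0.13 was not called (FDR = 0.324). *Scd1*, the other desaturase of this type, had 57.0 to 76.3 CPM with HCME-sEVs and 75.3 to 88.6 CPM with LME-sEVs (0.27, 95% interval 0.05 to 0.48, FDR = 0.120). *Fads1* and *Fads2*, the desaturases of polyunsaturated fatty acids, had log2 fold changes of -0.01 and 0.15, and *Elovl1*, which acts on very long chains, had -0.08.

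*Acss2*, which makes acetyl-CoA from acetate, had the highest fold change of the fatty acid enzymes without being called. Its levels were 9.88, 14.2, 18.1, and 11.4 CPM with HCME-sEVs and 13.7, 21.8, and 21.7 CPM with LME-sEVs. HCME-sEV libraries 2 and 3 and LME-sEV library 1 lay within the range of the opposite group. The log2 fold change was 0.54 (SE 0.20, FDR = 0.0980), and it was called without HCME-sEV library 3 (0.71) or without LME-sEV library 1 (0.71). Exons of *Acss2os*, *Ggt7*, and *Gss* overlap it on the opposite strand, and whether the authors counted by strand is not given in the sources used here. In all, exons of another gene overlap 10 of the 38 members on the opposite strand (*Srebf1*, *Scap*, *Hmgcs1*, *Fdft1*, and *Cyp51* among them) and 4 on the same strand, and the counts of these are uncertain to that extent; neither *Fasn* nor *Dhcr7* has such an overlap.

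**Figure D2:**
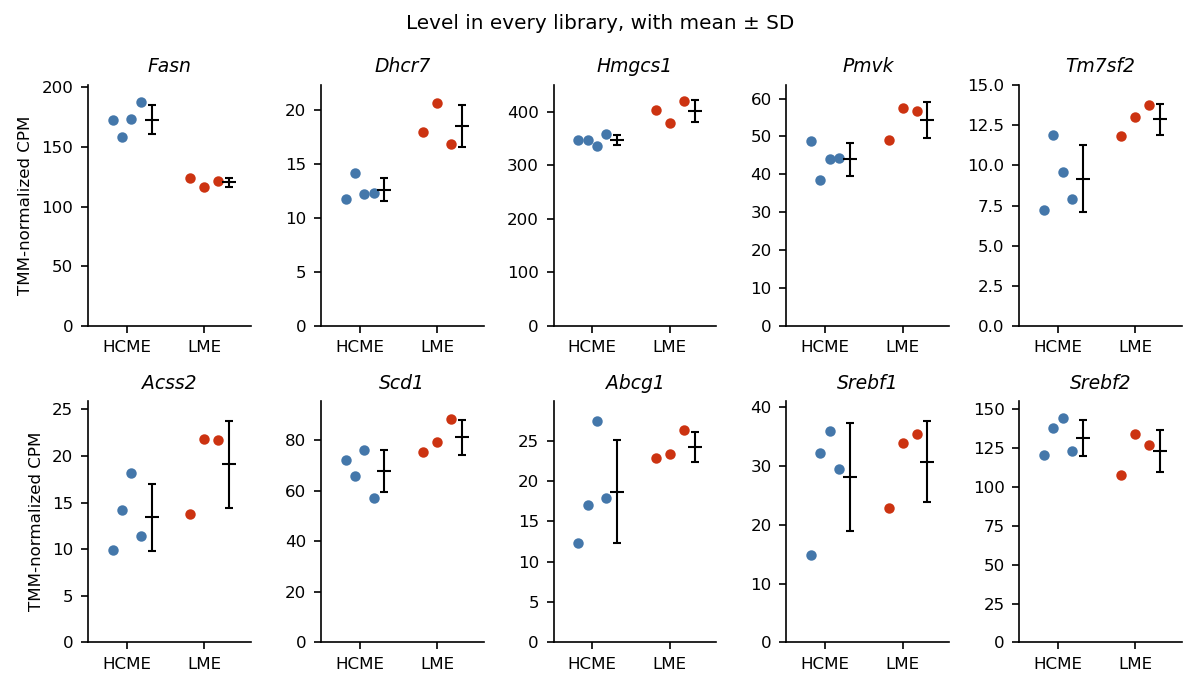
TMM-normalized CPM of 10 genes in every library, HCME-sEVs (blue, 4 points) and LME-sEVs (red, 3 points), with the mean and SD of each group at the right of its points; each vertical axis starts at 0. The 2 groups do not overlap for *Fasn*, *Dhcr7*, *Hmgcs1*, and *Pmvk*, and do for the other 6 genes.

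Among the sterol enzymes, 1 of 18 was called (5.56%, against 8.96% of all tested genes). In log2 fold change 11 lay above 0 and 7 below, where all tested genes had 6496 above and 6127 below. The median was 0.11, against 0.01 for all tested genes. *Dhcr7* (GRCm38 chr7:143823145-143848410, plus strand) stood at 11.8, 14.2, 12.3, and 12.3 CPM with HCME-sEVs and at 18.03, 20.68, and 16.87 CPM with LME-sEVs. All LME-sEV libraries were above all HCME-sEV libraries. It averaged 12.7 ± 1.05 CPM with HCME-sEVs (SD, n = 4) and 18.5 ± 1.95 CPM with LME-sEVs (SD, n = 3), from a mean of 64.3 counts per library. On the log2 scale the fold change came to 0.55 (SE 0.15, FDR = 0.0279 by the quasi-likelihood test of edgeR, Benjamini-Hochberg adjusted), an increase of 46.2% with a 95% interval from 17.3% to 82.2%. The two-sided exact permutation test gave p = 0.0286. This call was less stable than that of *Fasn*: DESeq2 gave an adjusted p of 0.0813, and the call held in 2 of the 7 fits that left out 1 library, with log2 fold changes from 0.46 to 0.62. The call was lost without HCME-sEV library 1 (FDR = 0.0578) or 4 (0.0617), and without LME-sEV library 1 (0.0557), 2 (0.162), or 3 (0.0550). At least 1 *Dhcr7* transcript has a 3′ end almost the same as a transcript of *Dhtkd1*, a gene that had at most 2 counts in a library.

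The enzymes just ahead of *Dhcr7* were not called. *Ebp*, the sterol isomerase, had 92.6 to 124.3 CPM with HCME-sEVs and 89.0 to 100.6 CPM with LME-sEVs, a log2 fold change of -0.21 (95% interval -0.41 to 0.002, FDR = 0.225). *Sc5d*, the desaturase that makes the substrate of *Dhcr7*, had 91.1 to 108.7 CPM and 88.8 to 103.4 CPM (-0.05, 95% interval -0.23 to 0.14). On the log2 scale *Dhcr7* relative to *Sc5d* was between -3.08 and -2.94 with HCME-sEVs and between -2.53 and -2.30 with LME-sEVs. Relative to *Ebp* it was between -3.40 and -2.81, and between -2.48 and -2.12. The groups were apart in both ratios, which reuse the levels of *Dhcr7*, were chosen after the levels were seen, and carry no test. *Dhcr7* was less abundant than either neighbor in every library.

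**Figure D3:**
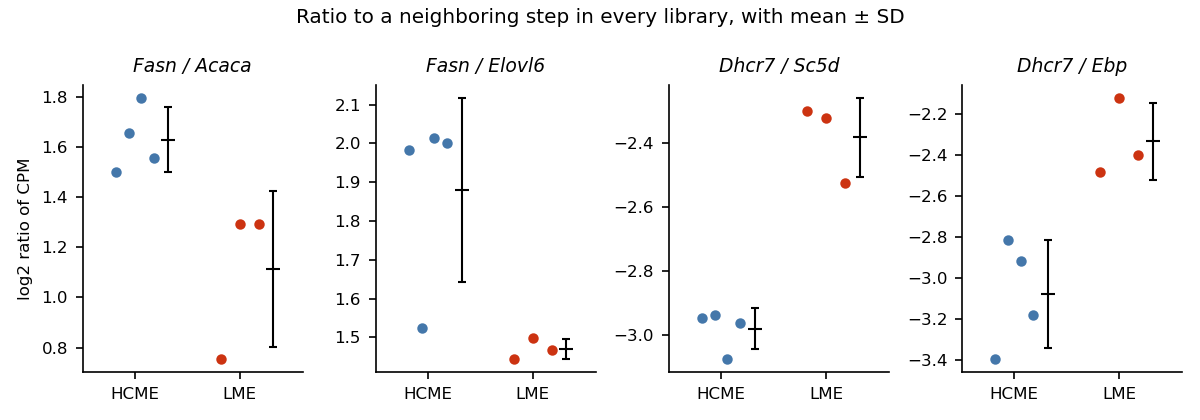
The log2 ratio of CPM of *Fasn* to *Acaca* and *Elovl6*, and of *Dhcr7* to *Sc5d* and *Ebp*, in every library (blue HCME-sEVs, n = 4; red LME-sEVs, n = 3), with mean and SD; the vertical axes do not start at 0. *Fasn* is lower and *Dhcr7* higher with LME-sEVs relative to each neighbor, and HCME-sEV library 2 is close to the LME-sEV libraries for *Fasn* over *Elovl6*.

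At the head of the mevalonate pathway no gene was called. *Hmgcs1*, which condenses acetoacetyl-CoA with acetyl-CoA, was the most abundant sterol enzyme, at 346.7, 346.9, 335.3, and 358.3 CPM with HCME-sEVs and 402.5, 379.8, and 420.4 CPM with LME-sEVs. The groups did not overlap, yet the log2 fold change of 0.21 (SE 0.07, 95% interval 0.06 to 0.36) had an FDR of 0.0760. Its exact permutation p was 0.0286. *Pmvk*, which phosphorylates phosphomevalonate, was near the threshold as well, with 38.5 to 48.9 CPM against 49.0 to 57.5 CPM, a log2 fold change of 0.31 (95% interval 0.09 to 0.53), and an FDR of 0.0719. HCME-sEV library 1 lay just below the lowest LME-sEV library, and without it *Pmvk* was called (log2 fold change 0.37, FDR = 0.0400). *Mvk*, the kinase ahead of it, had 10.4 to 18.3 CPM and 16.5 to 18.6 CPM (0.21, FDR = 0.507). *Acat2*, the thiolase that makes acetoacetyl-CoA, had -0.06, and *Mvd*, which makes isopentenyl diphosphate, had -0.09 with HCME-sEV library 1 at 95.7 CPM and the others between 58.7 and 84.0 CPM.

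No gene in the middle of the pathway was called. *Idi1*, *Fdps*, and *Fdft1*, which lead from isopentenyl diphosphate to squalene, had log2 fold changes of -0.26, 0.14, and 0.24, with 95% intervals that all covered 0. *Idi1* rested on a mean of 30.7 counts per library, and both *Idi1* and *Fdps* have near-identical 3′ ends elsewhere in the annotation, so their counts are uncertain. *Sqle*, which oxidizes squalene, and *Lss*, which closes the sterol rings, had 0.11 and -0.07. *Cyp51*, the demethylase of lanosterol, was the next most abundant sterol enzyme after *Hmgcs1*, at 333.0, 260.5, 255.8, and 275.2 CPM with HCME-sEVs and 259.1, 225.9, and 254.8 CPM with LME-sEVs. HCME-sEV library 1 stood above all others, and LME-sEV library 1 lay within the HCME-sEV range. Its log2 fold change of -0.19 (SE 0.09) had an FDR of 0.223. The later enzymes *Msmo1*, *Nsdhl*, and *Hsd17b7*, which strip methyl groups from the sterol nucleus, had 0.10, 0.20, and 0.08.

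*Tm7sf2*, a sterol reductase, had a larger but imprecise difference, at 7.23, 11.9, 9.60, and 7.92 CPM with HCME-sEVs and 11.8, 13.0, and 13.8 CPM with LME-sEVs. HCME-sEV library 2 lay just above the lowest LME-sEV library, and the log2 fold change of 0.50 had a 95% interval from 0.10 to 0.90 and an FDR of 0.113. Exons of *Vps51* overlap it on the same strand, so its counts are uncertain.

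Summed over the 18 sterol enzymes, the level was 1619, 1486, 1396, and 1488 CPM with HCME-sEVs and 1566, 1507, and 1561 CPM with LME-sEVs. The ranges overlapped, and *Hmgcs1* and *Cyp51* made up much of the sum. When each gene counted alike, the mean deviation of log2 CPM from the gene's own average was between -0.12 and 0.03 with HCME-sEVs and between 0.04 and 0.085 with LME-sEVs. The groups were narrowly apart in this mean, for which no test is given. For the 11 fatty acid enzymes the sums were 1132 to 1205 CPM and 1144 to 1233 CPM, and the mean deviations, -0.055 to 0.014 and -0.029 to 0.075, overlapped.

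**Figure D4:**
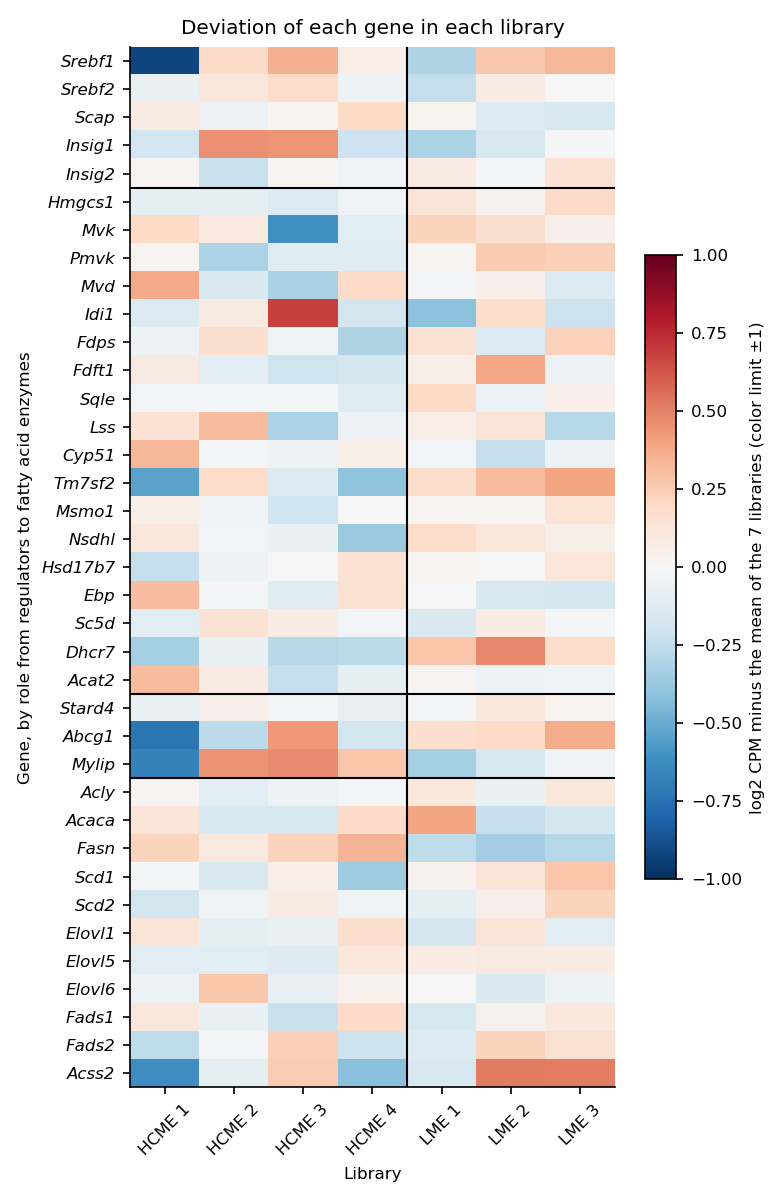
Log2 CPM of each tested gene minus its mean over the 7 libraries (columns), by role (rows, separated by lines): red above and blue below that mean, with the color limited at ±1. The row of *Fasn* changes from red to blue and that of *Dhcr7* from blue to red between the groups, while HCME-sEV library 1 is lowest for *Srebf1*, *Abcg1*, *Mylip*, *Tm7sf2*, and *Acss2*.

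None of the 5 regulators was called, and none had an unadjusted p under 0.05 with edgeR, DESeq2, or limma-voom; 2 lay above and 3 below 0. *Srebf2*, which encodes SREBP2, the main activator of the sterol branch, stood at 120.9, 138.1, 144.8, and 123.2 CPM with HCME-sEVs and 107.9, 134.4, and 127.2 CPM with LME-sEVs. Its log2 fold change was -0.09 with a 95% interval from -0.29 to 0.10. *Scap*, the escort, stood at 62.9, 57.0, 60.3, and 68.2 CPM and then at 60.8, 53.9, and 53.5 CPM (-0.15, 95% interval -0.36 to 0.05, FDR = 0.384). The groups overlapped for both. *Srebf1*, which encodes SREBP1, the activator of *Fasn* and the desaturases, stood at 14.9, 32.2, 36.0, and 29.6 CPM with HCME-sEVs and 22.9, 33.9, and 35.5 CPM with LME-sEVs. HCME-sEV library 1 stood far below the others, and the log2 fold change was 0.15 with it and -0.06 without it, called in neither (FDR = 0.723 and 0.858). *Insig1*, itself raised by SREBP, had 20.3 to 32.2 CPM and 18.8 to 23.1 CPM (-0.30, 95% interval -0.66 to 0.05, FDR = 0.298), and *Insig2* had 0.12. A transcript level says nothing of how much SREBP was cleaved, which was not measured here.

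Of the genes of sterol transport, 3 of 4 were tested and none was called by edgeR, DESeq2, or limma-voom; at an unadjusted p under 0.05 there was 1 with edgeR and limma-voom (*Abcg1*) and 0 with DESeq2. *Stard4*, a carrier of cholesterol between membranes, stood at 117.3, 127.2, 121.6, and 115.9 CPM with HCME-sEVs and 121.1, 132.4, and 125.6 CPM with LME-sEVs. The groups overlapped, and its log2 fold change of 0.07 had a 95% interval from -0.10 to 0.24. *Abcg1*, an exporter of cholesterol and an LXR target, stood at 12.3, 17.0, 27.5, and 17.9 CPM and then at 22.9, 23.4, and 26.4 CPM. HCME-sEV library 3 lay above all LME-sEV libraries and the other HCME-sEV libraries below them. The log2 fold change was 0.39 (SE 0.18, FDR = 0.215), and 0.63 without HCME-sEV library 3, where it was called (FDR = 0.0145). *Mylip*, an LXR target whose product marks lipoprotein receptors for breakdown, had 3.614 to 8.002 CPM and 4.57 to 5.62 CPM (-0.35, 95% interval -0.93 to 0.23). The exporter *Abca1* did not pass the filter, with 5, 2, 2, and 4 counts in the HCME-sEV libraries and 5, 3, and 3 in the LME-sEV libraries, so no difference could be shown at this depth.

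HCME-sEV library 1 was the lowest of its group and of all 7 for *Srebf1*, *Abcg1*, *Mylip*, *Tm7sf2*, and *Acss2*, and it was an extreme of the 7 libraries for 35.1% of the tested members and for 37.6% of all tested genes. HCME-sEV library 3 was an extreme for more members, 40.5%, against 27.1% of all tested genes. Library 1 also had the lowest summed level of the basophil and mast cell markers (5.30 CPM, against 13.3 to 34.0 CPM in the other HCME-sEV libraries and 27.7 to 44.5 CPM in the LME-sEV libraries) and of the erythroid and platelet markers (72.0 CPM, against 92.9 to 176.0 CPM and 151.4 to 198.4 CPM). The B-cell list summed to 226.0 to 267.3 CPM with HCME-sEVs and 303.8 to 329.8 CPM with LME-sEVs, nearly all of it *Ighm*, the only gene called of the 3 tested. Of the other B-cell markers, *Cd79a* had at most 2 counts in a library and *Cd22* at most 3. *Cd79b* had 7 to 22 and *Ms4a1* had 1 to 7, and the groups overlapped for each of these. *Pax5*, too low to be tested, went the opposite way from *Ighm*, with 2 to 6 counts with HCME-sEVs and 1 in each LME-sEV library. The myeloid list summed to 1.6 to 4.10 CPM and 4.65 to 9.42 CPM. In it *Itgam*, too low to be tested, had 0 to 1 counts with HCME-sEVs and 6 to 8 with LME-sEVs, while the groups overlapped for the other genes. In the T-cell list *Cd3e* (log2 fold change 0.36) and *Cd3g* (0.49) were called, both higher with LME-sEVs. *Cd3d* (0.21), *Cd2* (0.10), *Cd8a* (0.20), and *Cd8b1* (0.19) were not. The T-cell, B-cell, and myeloid sums did not overlap between the groups, and the basophil and the erythroid and platelet sums did. With each gene counted alike, the mean log2 deviations of the latter lists were apart, at -0.58 ± 0.93 (SD, n = 4) and 0.78 ± 0.30 (SD, n = 3) for basophils and mast cells, and -0.25 ± 0.31 and 0.33 ± 0.19 for erythroid cells and platelets. In the basophil list 3 of 5 tested genes were called, against 8.96% of all tested genes. All 3 were higher with LME-sEVs: *Prg2* (0 to 0.534 CPM against 4.07 to 9.21 CPM), *Prss34*, and *Mcpt8*. *Cpa3* (log2 fold change -0.26) and *Fcer1a* (0.37) were not called. In the erythroid and platelet list 3 of 7 were called, also higher: *Pf4*, *Ppbp*, and *Hba-a1*. *Hbb-bs* (log2 fold change -0.01), *Hba-a2* (0.45), *Hbb-bt* (0.45), and *Gp9* (0.67) were not called. Each of the markers had counts in at least 1 library, and the part of these levels in the results for *Fasn* and *Dhcr7* was not tested. In the fit without HCME-sEV library 1, *Fasn* was called (log2 fold change -0.52) and *Dhcr7* was not (0.515, FDR = 0.0578). That fit leaves the marker levels of the other libraries as they are, so it does not test their part.

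The wider pathway was read from 6 further lists of genes. None of the 11 genes that process SREBP or degrade its partners, such as the proteases *Mbtps1* and *Mbtps2*, was called by edgeR, DESeq2, or limma-voom, and their log2 fold changes lay between -0.26 and 0.15; at an unadjusted p under 0.05 there was 1 (*Rnf139*) with edgeR and limma-voom and 0 with DESeq2. Of the LXR receptors, their partners, and genes reported as their targets, 1 of 7 tested was called (14.3%, against 8.96% of all tested genes). *Smpdl3a*, a phosphodiesterase related to acid sphingomyelinase, rose from a mean of 28.9 ± 2.15 CPM over the 4 HCME-sEV libraries (± SD) to 43.7 ± 5.44 CPM over the 3 LME-sEV libraries, with 26.9 to 31.9 CPM in the HCME-sEV libraries and 39.8 to 49.9 CPM in the LME-sEV libraries. The groups were apart, and the log2 fold change of 0.59 (SE 0.12, FDR = 0.00344) was called in all 14 alternative analyses. *Nr1h2*, which encodes the LXR beta receptor, had -0.15 and was not called.

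For storage and trafficking of sterols, 2 of 13 tested genes were called (15.4%, against 8.96% of all tested genes). *Tmem97*, an endoplasmic reticulum protein that binds sterols, fell from 146.7 ± 18.2 to 115.5 ± 0.84 CPM (log2 fold change -0.35, FDR = 0.0231). *Lipa*, the lysosomal lipase that frees cholesterol from its esters, rose from 28.8 ± 1.97 to 38.7 ± 4.28 CPM (0.43, FDR = 0.0252). In the isoprenoid branches 1 of 12 was called (8.33%): *Pdss1*, which makes the side chain of coenzyme Q, fell from 39.4 ± 5.31 to 28.2 ± 3.27 CPM (-0.48, FDR = 0.0224). These values are mean ± SD of 4 HCME-sEV and 3 LME-sEV libraries, and the groups did not overlap for these 3 genes, as for 20.3% of all tested genes. Leaving out 1 library ended the call of *Tmem97* without HCME-sEV library 1 or 4 or any LME-sEV library (FDR from 0.0510 to 0.0989), that of *Lipa* without HCME-sEV library 2 or 4 or LME-sEV library 1 or 3 (0.0602 to 0.164), and that of *Pdss1* without HCME-sEV library 2 or LME-sEV library 2 or 3 (0.0799 to 0.146). The test of DESeq2 did not call *Lipa* either (adjusted p = 0.0520).

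Of the other genes of fatty acid metabolism, 3 of 20 tested were called (15%, against 8.96% of all tested genes). *Acsl3*, which activates fatty acids for lipid droplets, rose from 64.0 ± 3.24 to 83.6 ± 7.73 CPM (log2 fold change 0.38, FDR = 0.0131). *Lpin1*, a phosphatidate phosphatase, rose from 37.6 ± 6.38 to 49.7 ± 5.57 CPM (0.41, FDR = 0.0420), with HCME-sEV library 3 at 46.7 CPM above LME-sEV library 1 at 45.7 CPM. *Hsd17b12*, a reductase of the elongation cycle, fell from 86.7 ± 11.4 to 65.7 ± 3.23 CPM (-0.40, FDR = 0.0176), with no overlap between the groups. Among genes of fatty acid oxidation 1 of 16 tested was called (6.25%). *Etfdh*, which passes electrons from this oxidation to the respiratory chain, rose from 20.03 ± 3.36 to 28.4 ± 1.79 CPM (0.51, FDR = 0.0250). Leaving out 1 library ended the call of *Acsl3* without LME-sEV library 2 (FDR = 0.110), that of *Hsd17b12* without HCME-sEV library 4 or LME-sEV library 2 or 3 (0.0533 to 0.106), that of *Etfdh* without HCME-sEV library 1 or 2 or LME-sEV library 2 or 3 (0.0630 to 0.114), and that of *Lpin1* in all fits but those without HCME-sEV library 3 or LME-sEV library 1 (0.0955 to 0.248). The test of DESeq2 did not call *Lpin1* either (adjusted p = 0.0622). The carnitine transferase *Cpt1a* had 0.23 (95% interval -0.09 to 0.55) and was not called.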

How the data were processed

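RNA-seq libraries from 7 cultures of CD8+ T cells were prepared from 500 ng of RNA with a 3′ kit and molecular identifiers. Per the submitters' processing notes, the authors trimmed reads with cutadapt 2.10, mapped them with STAR 2.5.3a to GRCm38, merged copies with UMI-tools 1.0.0, and counted genes with featureCounts (Subread 2.0.0). The deposited values are these raw counts per gene symbol. Merging by identifier makes a count 1 captured molecule, and levels rest on how well 3′ ends are annotated.

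Genes averaging 5 or more counts were fitted with edgeR 4.0.16 (TMM, glmQLFit, glmQLFTest, no covariate) in R 4.3.3, comparing LME-sEVs to HCME-sEVs; p-values were adjusted over all 12623 genes. Intervals at 95% use the fit's standard error and are approximate. Exact permutation tests, two-sided, used log2 CPM (prior count 2) over the 35 assignments of the libraries. These intervals include the spread between libraries, whereas the limit of 3 counts covers counting error only. Single genes of the HCME-sEV group were screened with Dixon's ratio. Gene positions came from GENCODE vM21, 3′ ends (last 300 bases, 95% identity over 200 bases) were compared with blastn, and promoters were from RefSeq. Alternatives were DESeq2 size factors, library size only, filterByExpr, no filter, the tests of DESeq2 and limma-voom, a replicate block, and leaving out each library. The fits of edgeR, DESeq2, and limma-voom were tested on simulated counts with planted changes larger than those of the members. That does not show how well changes of the members' size are found. The permutation test and the motif search were checked on small inputs with known answers.

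The members and lists were chosen with earlier results of these data known. Described in full were called members, the 2 most abundant members of each role, and members that failed the filter; other lists were given by counts and their called genes. *Hmgcs1* fell under the abundance rule, but its promoter was added after the match was seen, as were the members near the threshold. Of the planned cell type markers, 1 is not reported here and was left out of its list.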

Additional observations from a re-analysis of the deposited data

Results flagged for a closer look

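In 2 of the 59 levels and sums screened, 1 HCME-sEV library stood apart from the other 3 of its group, judged by its gap to the nearest of them as a fraction of the whole range (Dixon's test at 95%). For *Sqle*, HCME-sEV library 4 was lower than the others, with a fraction of 0.856. For *Elovl5*, HCME-sEV library 4 was higher than the others, with a fraction of 0.925. Chance flags about 1 in 20 such groups, or 2.95 of 59. Neither gene was called between the groups.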

How the results depend on the processing

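Of the member results, *Fasn* was called in all 14 alternatives and *Dhcr7* in 8, and the median log2 fold changes of the sterol and fatty acid enzymes kept their sign in all of them. From 0.105 and 0.088 they moved to 0.151 and 0.134 by library size only, and ranged from 0.059 to 0.124 and from 0.056 to 0.111 with 1 library left out, both lowest without LME-sEV library 3. All genes called, 1131 in the main analysis, ranged from 391 to 1305 when 1 library was left out, with 723 when HCME-sEV library 2 was left out, 391 for LME-sEV library 2, and 458 for LME-sEV library 3. Members called, 2 in the main analysis, were 4 by library size only and 1 with DESeq2's test, and 1 to 4 with a library left out. Sterol enzymes called, 1 in the main analysis, were 3 by library size only, where *Hmgcs1* (FDR = 0.0313) and *Pmvk* (FDR = 0.0416) joined *Dhcr7* and the median of all genes rose to 0.055 on the log2 scale, 0 with DESeq2's test, where 4 had an unadjusted p under 0.05, and 0 to 1 with a library left out. Fatty acid enzymes called, 1 in the main analysis, were 2 without the filter, where *Acss2* joined (0.55), and 1 to 2 with a library left out. The causes were not tested.

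Reversals concerned uncalled genes near 0. *Acaca* (main -0.0002) had log2 fold changes of 0.000 with DESeq2 size factors, 0.007 with filterByExpr, 0.007 with no filter, 0.008 with DESeq2's test, 0.045 by library size only, and -0.209 to 0.111 with 1 library left out. *Fads1* (main -0.01) had 0.034 by library size only, and -0.082 to 0.062 with 1 library left out. The sign of 5 more genes depended on a library: with 1 left out, *Srebf1* ranged from -0.062 (HCME-sEV 1) to 0.314, *Mvd* from -0.194 to 0.037 (HCME-sEV 1), *Acat2* from -0.135 to 0.053 (HCME-sEV 1), *Lss* from -0.164 to 0.059 (LME-sEV 3, and 0.035 for HCME-sEV 2), and *Sc5d* from -0.100 to 0.013 (LME-sEV 1).

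Same-numbered libraries correlated at 0.072, 0.155, and 0.027 in their deviations from the group means, and unlike-numbered ones at -0.206 to 0.08. These values do not settle whether the numbers are pairs. No label says that they are, and the main analysis did not take them as pairs. With the replicate number as a block, which leaves out HCME-sEV library 4, 1440 genes, 3 members, 2 sterol enzymes, and 1 fatty acid enzyme were called, against 918, 1, 0, and 1 in the same libraries without the block; *Hmgcs1* was called (0.224, FDR = 0.0492), and *Acaca* (0.066) and *Fads1* (0.056) were above 0. Depth limits the genes of few counts, *Abca1* first.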
